A study of Homo sapiens with 10 samples.

Results

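The 2 short hairpin constructs that a study of lamin B1 used to lower LMNB1 in DLD-1 cells, an established human colorectal cancer cell line, were compared with each other. The samples were 3 arrays of construct V2LHS_62675, all from 1 clone, and 1 array each of clones 8, 9 and 12 of construct V2LHS_62673, together 6 of the 10 samples of the series. The members were chosen by construct label, and all probes with 1 gene symbol were described. The other 4 arrays were 3 clones carrying an empty vector and untransfected wild type cells, which served as negative controls for both constructs. Every clone grew from a single transfected cell in RPMI medium with serum under puromycin, and the wild type cells had no puromycin. Their total RNA was depleted of ribosomal RNA and measured on gene-level exon arrays as 1 log2 level per probe.

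The labels of V2LHS_62675 disagree: the 3 titles name a clone 12 with biological replicates, but the descriptions and the design name clone 2, arrayed 3 times. The latter was used here. V2LHS_62675 therefore stands for 1 clone, and a property of its hairpin and a property of that clone cannot be told apart. The 3 arrays were averaged to 1 value. An exact permutation test of 1 clone against 3 has 4 regroupings and cannot go below p = 0.25, so differences were tested with limma, which takes the spread between clones from the V2LHS_62673 and empty vector clones and assumes it for clone 2.

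Lamin B1 is a filament protein of the nuclear lamina, the meshwork under the inner nuclear membrane to which much of the inactive chromatin is tethered. A short hairpin RNA is cut in the cell to a small RNA that guides degradation of matching transcripts, and hairpins against different stretches of a transcript are used side by side because each can also act on unintended transcripts. Single cells of a cancer line differ from each other before any treatment, and growing clones from them carries those differences along. Of the genes that set the constructs apart here, CFTR encodes the apical chloride channel of colon epithelium, SATB1 encodes a protein that organizes chromatin loops, and CHI3L1 encodes a secreted chitinase-like glycoprotein.

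The array of clone 8 stood apart from all the others. Its median over all probes was 7.62, against 7.34 to 7.41 on the other 9 arrays, and its correlation with them was 0.915 to 0.926. The comparison was therefore made with clone 8 and without it, that is, against clones 9 and 12 alone. Differences are without clone 8 unless stated, and no probe named here passed with it. Within clone 2, arrays 2 and 3 correlated at 0.994 and array 1 correlated with each of them at 0.988, no higher than its 0.991 with clone 12. Arrays 2 and 3 in turn correlated with wild type cells at 0.991 and 0.993, above their 0.988 with array 1. Markers of colon epithelium were present on all 10 arrays. EPCAM, an epithelial adhesion molecule, lay between 11.26 and 11.79, the intestinal transcription factor CDX2 between 8.80 and 9.26, and the mature colonocyte keratin KRT20 was low throughout, at 4.78 to 5.44. Lists of mesenchymal, leukocyte, endothelial and neuroendocrine markers had array medians between 5.56 and 6.93, against 5.96 as the level below which probes were left out, and their brightest genes had means of 7.61 (COL1A1), 7.79 (CD68), 8.23 (CLDN5) and 7.86 (INSM1).

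LMNB1 was low on all 6 arrays of the constructs. Its level was 8.93, 9.17 and 8.84 in the empty vector clones and 9.52 in wild type cells. It was 7.79, 7.70 and 7.45 in clones 8, 9 and 12 of V2LHS_62673, and 7.72, 7.72 and 7.56 on the 3 arrays of clone 2. The values of the 2 constructs overlapped, and all 6 lay below the 4 controls. Clone 2 minus the 3 clones was 0.02 (SE 0.24, 95% interval -0.53 to 0.58, limma adjusted p = 0.977), and without clone 8 it was 0.10 (SE 0.16, 95% interval -0.27 to 0.46, adjusted p = 0.935). Its probe is annotated to PCIF1 as well. A PCIF1 probe of its own, for an mRNA cap methyltransferase, differed by 0.18 without clone 8 (adjusted p = 0.666).

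LMNB1 was below every control on both sides, and other genes differed between clone 2 and clones 9 and 12. CFTR, SATB1, NEO1 and NPNT were 3.60 to 5.96-fold lower in clone 2 than in clones 9 and 12, and CHI3L1, FSCN1 and PTPRR were 3.05 to 4.69-fold higher. In clone 2 SATB1 lay under the level of 5.96 used to leave out dim probes and CFTR close to it, so the folds of these genes are to be read as lower limits. Of 11324 probes tested, 241 passed an adjusted p of 0.05 without clone 8 (limma, Benjamini-Hochberg), 2.13% of them. Higher in clone 2 were 100 (0.883%) and lower 141 (1.25%), and of the 42 that differed at least 2-fold, 32 were lower. With clone 8 in the comparison no probe passed (0%), and 249 had an unadjusted p under 0.05. Under the alternatives that kept clone 8, 372 passed with array weights, 15 with every array as a replicate and 4 with clone as a random block. The 3 arrays of clone 2 lay above all 3 V2LHS_62673 clones for 7.92% of probes and below all of them for 6.97%.

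The count without clone 8 depended on single arrays. It was 954 without array 1 of clone 2, 144 without array 2, 114 without array 3, 72 without empty vector clone 2 and 78 without empty vector clone 3. Quantile normalization gave 155 calls, of which 48 were higher and 107 lower. CFTR, SATB1, NEO1, CHI3L1, FSCN1 and PTPRR passed without clone 8 in every alternative that tested them.

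**Figure D1:**
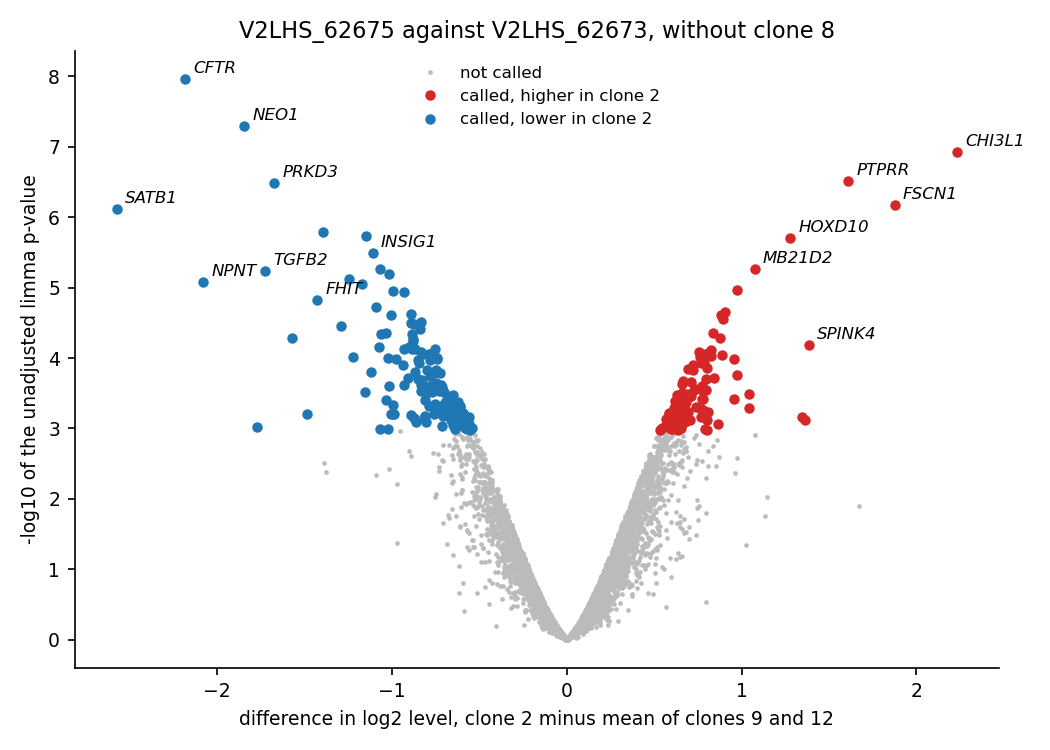
Each point is 1 of 11324 probes; the x axis is clone 2 minus the mean of clones 9 and 12 in log2 units, and the y axis is -log10 of the unadjusted limma p. Of the 241 called probes 100 lie on the right and 141 on the left, with CFTR at the top left and CHI3L1 at the top right.

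CFTR and CHI3L1 were among the clearest differences, in opposite directions, and each has 1 start site in the promoter table, so the 250 bases before it are shown. They are from RefSeq (GRCh38.p14), 5′ to 3′ on the strand of the gene, CFTR at chr7:117479775-117480024 on the plus strand and CHI3L1 at chr1:203186705-203186954 on the minus strand. Capitals mark each CG pair and the letters TATAAA.
CFTR: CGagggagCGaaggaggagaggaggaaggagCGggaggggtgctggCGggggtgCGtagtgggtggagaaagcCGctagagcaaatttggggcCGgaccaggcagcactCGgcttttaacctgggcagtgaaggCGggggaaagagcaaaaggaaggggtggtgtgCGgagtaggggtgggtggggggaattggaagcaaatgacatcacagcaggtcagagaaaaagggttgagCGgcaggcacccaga
CHI3L1: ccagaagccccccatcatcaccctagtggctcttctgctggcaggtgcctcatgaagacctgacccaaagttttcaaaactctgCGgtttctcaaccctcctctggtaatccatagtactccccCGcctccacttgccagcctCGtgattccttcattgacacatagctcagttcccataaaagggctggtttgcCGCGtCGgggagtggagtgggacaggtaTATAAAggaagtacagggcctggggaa
The CFTR window held 11 CG pairs, the median of all 35116 windows of this length in the table, and no TATAAA on either strand. The CHI3L1 window held 6 CG pairs and a TATAAA that starts 27 bases before the gene, on the strand of the gene. TATAAA was found on the gene's strand in 6.80% of all windows and on either strand in 10.72%. Neither window held TGANTCA, the AP-1 motif, which reads the same on both strands and was found in 6.57% of windows. SATB1 has 4 start sites in the table, which 1 level per gene does not separate, and FSCN1 was not matched. Methylation and factor binding were not measured.

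CFTR was the difference with the smallest p, with or without clone 8. Its level was 8.24, 8.18 and 7.98 in the empty vector clones, 8.24 in wild type cells and 8.51, 8.21 and 8.23 in clones 8, 9 and 12. It was 6.03, 6.04 and 6.04 on the arrays of clone 2, near the level at which probes were left out. The 7 other arrays lay between 7.98 and 8.51, and only clone 2 was low. The difference was -2.18 (SE 0.14, adjusted p = 1.23e-04) without clone 8 and -2.28 (SE 0.23, adjusted p = 0.177) with it. Against the empty vector clones CFTR differed by -2.10 in clone 2 and by 0.08 in clones 9 and 12. Called neighbours of CFTR, among the 3 tested probes on each side in gene order, went both ways. CAV1 (-1.01) was called lower and TSPAN12 (0.65) higher, and MET (-0.32) and LSM8 (-0.10) were not called. CTTNBP2, a cortactin-binding protein, follows CFTR directly among the tested probes and was called lower. It was at 5.97, 6.03 and 5.91 in clone 2, near the level at which probes were left out, and at 6.49 and 6.73 in clones 9 and 12. Its difference was -0.64 (adjusted p = 0.0472), while CAPZA2 on the other side of CFTR, a capping protein of actin filaments, differed by 0.08 (adjusted p = 0.927).

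SATB1 had the largest difference, and the constructs left the empty vector range on opposite sides. Its level was 6.24, 6.98 and 6.78 in the empty vector clones and 6.67 in wild type cells. Clones 8, 9 and 12 were above all of these at 7.45, 7.95 and 7.62, and the arrays of clone 2 were below all of them at 5.38, 4.95 and 5.29. Clone 2 minus clones 9 and 12 was -2.58 (SE 0.25, adjusted p = 0.00125), with clone 2 at -1.46 and clones 9 and 12 at 1.11 against the empty vector clones. With clone 8 the difference was -2.47 (SE 0.33, adjusted p = 0.343). The tested neighbours TBC1D5 (-0.31) and KCNH8 (-0.21) were not called.

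CHI3L1 and FSCN1 showed the reverse pattern. CHI3L1 was at 9.31, 9.68 and 9.72 in the empty vector clones, 9.47 in wild type cells, 8.39, 7.74 and 7.97 in clones 8, 9 and 12, and 10.06, 10.13 and 10.07 on the arrays of clone 2. FSCN1, which encodes fascin, a bundler of actin filaments in cell protrusions, was at 8.90, 9.36 and 9.31 in the empty vector clones, 9.36 in wild type cells, 7.82, 7.78 and 7.83 in clones 8, 9 and 12, and 9.61, 9.70 and 9.73 in clone 2. For both genes clone 2 lay a little above the controls and the V2LHS_62673 clones far below them, with no overlap. CHI3L1 differed by 2.23 (SE 0.18, adjusted p = 4.56e-04) and FSCN1 by 1.88 (SE 0.18, adjusted p = 0.00125) without clone 8. Of these, 0.52 and 0.49 were the distance of clone 2 from the empty vector clones, and -1.71 and -1.38 that of clones 9 and 12. With clone 8 the differences were 2.05 (adjusted p = 0.506) and 1.87 (adjusted p = 0.338).

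**Figure D2:**
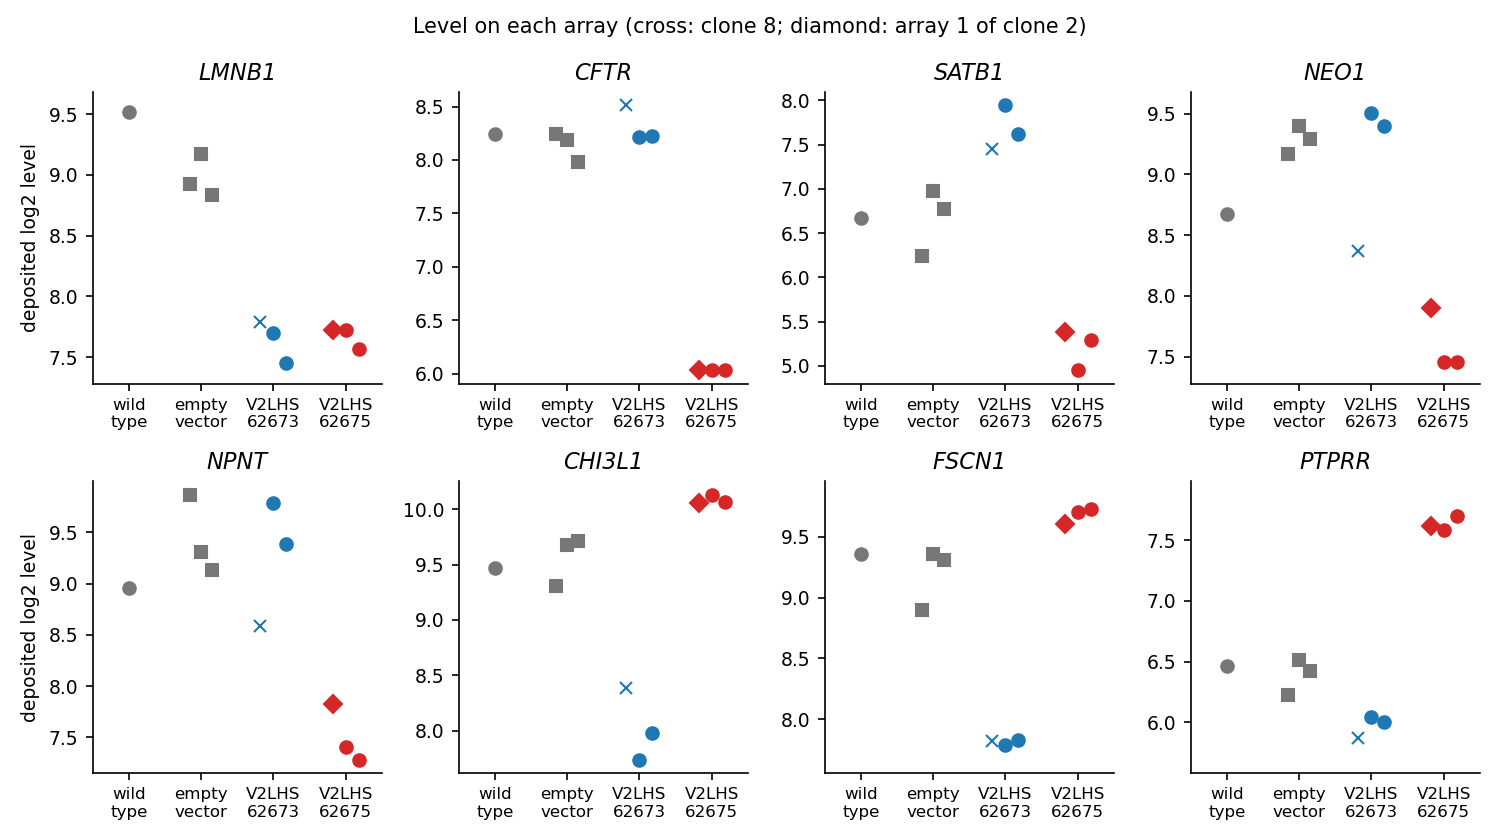
Deposited log2 level (y axis) of 8 genes on each of the 10 arrays, by group; a cross is clone 8, a diamond array 1 of clone 2, and the y axes span different ranges. LMNB1 overlaps between the constructs, CFTR sits at 6.03 to 6.04 in clone 2 alone, and SATB1, CHI3L1 and FSCN1 lie on opposite sides of the controls.

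NEO1 and NPNT were also among the largest lower differences. NEO1, the receptor neogenin for netrins and repulsive guidance molecules, was at 9.17, 9.40 and 9.29 in the empty vector clones, 8.68 in wild type cells, 8.37, 9.50 and 9.40 in clones 8, 9 and 12, and 7.90, 7.46 and 7.46 in clone 2. NPNT, which encodes the integrin ligand nephronectin, was at 9.87, 9.31 and 9.13 in the empty vector clones, 8.96 in wild type cells, 8.59, 9.79 and 9.38 in clones 8, 9 and 12, and 7.83, 7.41 and 7.28 in clone 2. In both, clone 2 was below every other array and array 1 was its highest. NEO1 differed by -1.85 (SE 0.14, adjusted p = 2.86e-04) and NPNT by -2.08 (SE 0.26, adjusted p = 0.00552) without clone 8, and both were at an adjusted p of 0.930 with it.

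The cytokine TGFB2 (-1.73, adjusted p = 0.00476) was at 9.38, 9.65 and 9.63 in the empty vector clones, at 8.88, 9.80 and 10.37 in clones 8, 9 and 12, and at 8.58, 8.25 and 8.26 in clone 2. PRKD3, a protein kinase D (-1.67, adjusted p = 7.37e-04), was at 7.93 and 8.12 in clones 9 and 12 and at 6.19, 6.52 and 6.33 in clone 2, with clone 8 between them at 7.26. CLIC5, a chloride intracellular channel family protein of microvilli, differed by -1.57, the sulfotransferase SULT1C2 by -1.49, the septin SEPTIN3 by -1.39, the mitochondrial coactivator PPARGC1A by -1.15 and LHFPL6 by -1.77. SULT1C2 was below the empty vector clones (9.05, 9.67 and 9.75) in both constructs, at 7.61, 8.64 and 7.89 in clones 8, 9 and 12 and 6.93, 6.80 and 6.60 in clone 2, and it was also low in wild type cells at 7.36. LHFPL6 rested on clone 9, which was at 9.40 where clone 12 was at 8.04. Its adjusted p was 0.0479, and it lost its call in 11 of 20 alternatives, as SULT1C2 did in 10. With clone 8 the differences were -1.33 for TGFB2, -1.42 for PRKD3, -1.15 for CLIC5, -1.27 for SULT1C2, -0.80 for SEPTIN3, -1.23 for PPARGC1A and -1.52 for LHFPL6.

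Among the higher genes PTPRR, a receptor-type tyrosine phosphatase that acts on MAP kinases, was at 7.62, 7.59 and 7.70 in clone 2, against 6.22 to 6.51 in the empty vector clones and 5.87 to 6.05 in clones 8, 9 and 12 (1.61, SE 0.14, adjusted p = 7.37e-04). HOXD10, a positional homeobox factor, was at 8.01, 7.85 and 7.95 in clone 2, above 6.99 to 7.22 in the empty vector clones and 7.04, 6.61 and 6.70 in clones 8, 9 and 12 (1.28, adjusted p = 0.00227). MB21D2 was at 8.62, 8.73 and 8.86 in clone 2, at 7.50, 7.70 and 7.63 in clones 8, 9 and 12 and at 8.56 in wild type cells (1.07, adjusted p = 0.00474). All 3 arrays of clone 2 were above clones 8, 9 and 12 for these genes. PTPRR (adjusted p = 0.338), HOXD10 and MB21D2 (0.930 each) did not pass with clone 8.

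For other higher genes array 1 of clone 2 lay well below arrays 2 and 3. SPINK4, a goblet cell secreted protein, was at 7.56 and 7.40 there and at 6.45 on array 1, within the controls at 6.07 to 6.58. TNNC1, a troponin C, was at 10.68 and 10.53 there and at 9.56 on array 1, beside 9.54 in clone 12, with wild type cells at 10.19. Likewise TMEM126A, a mitochondrial membrane protein, was at 9.19 and 9.17 against 8.12 on array 1, the dynein light chain DYNLT1 at 9.86 and 9.64 against 8.75 (clone 8 was at 9.78), and TAX1BP3, a small PDZ domain protein, at 10.91 and 10.88 against 10.16. The complement regulator C4BPB had 8.10 and 8.05 against 7.41. Their differences ran from 0.91 to 1.39 and each passed with all arrays averaged. TNNC1 lost its call in 12 of 20 alternatives, TMEM126A in 10 and DYNLT1 in 6. Their differences with clone 8 were 1.21, 1.04 and 0.52.

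The trefoil factor TFF1 (1.35, adjusted p = 0.0415) was at 7.60 and 6.76 in clones 9 and 12 and at 8.07, 8.64 and 8.87 in clone 2, but clone 8 was above all of these at 9.15. JUN, a subunit of AP-1 (1.04, adjusted p = 0.0396), was at 7.20 and 7.37 in clones 9 and 12 and at 8.19, 8.32 and 8.49 in clone 2, with clone 8 among the controls at 7.91. PHLDB2, a protein of the cell cortex (1.36, adjusted p = 0.0429), was at 6.34 and 7.26 in clones 9 and 12 and at 7.95, 8.29 and 8.25 in clone 2. CHRNA1, a subunit of the muscle acetylcholine receptor, differed by 0.97 (adjusted p = 0.0242). TFF1 lost its call in 11 of 20 alternatives, JUN in 10 of 20 and PHLDB2 in 11 of 19. With clone 8 TFF1 differed by 0.69, JUN by 0.84, PHLDB2 by 1.59 and CHRNA1 by 0.88.

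Array 1 of clone 2 differed more from arrays 2 and 3 than these did from each other. Over all tested probes the SD of array 1 minus the mean of arrays 2 and 3 was 0.27, that of array 2 minus array 3 was 0.17, and that of clone 9 minus clone 12 was 0.20. With array 1 alone for clone 2, 127 probes were called (29 higher), 90 of them among the 241. With arrays 2 and 3 alone, 954 were called (622 higher), and 237 of the 241 were among them. Called in the same direction both ways were 89 probes, 16 higher and 73 lower. Array 1 lay nearer to arrays 2 and 3 than to clones 9 and 12 for 115 of the 141 lower probes but for 40 of the 100 higher ones, beside 42.9% of all probes. It was above the mean of clones 9 and 12 for 91 of the 100 higher probes and below it for 140 of the 141 lower ones. The exception was 1 of the 2 probes of LMBR1, a membrane protein, at 10.10 on array 1 and 7.91 and 8.00 on arrays 2 and 3, with clone 8 at 4.73. With clone 8 its difference turned from -1.22 to 0.50. The other LMBR1 probe differed by -0.34 (adjusted p = 0.295). It is named because it lies apart, after its values were seen. Whether array 1 comes from the same clone as arrays 2 and 3 was not tested.

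**Figure D3:**
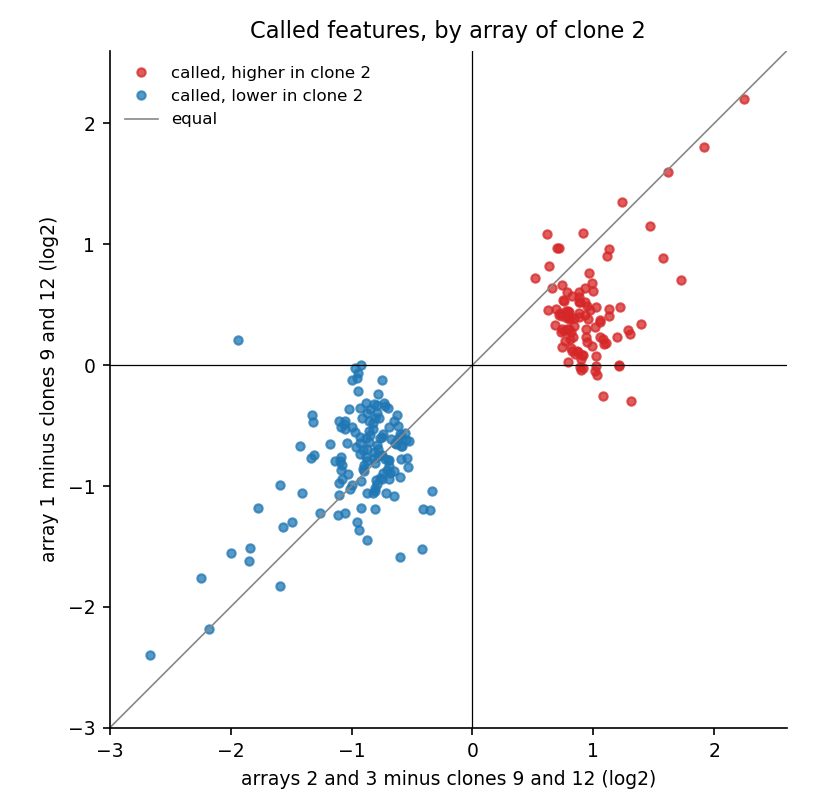
Each point is 1 of the 241 called probes; the x axis is the mean of arrays 2 and 3 minus clones 9 and 12 and the y axis is array 1 minus clones 9 and 12, both in log2 units, with a grey line of equality. Lower probes scatter around the line, and higher probes lie mostly under it, with medians of 0.90 on arrays 2 and 3 and 0.39 on array 1.

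Against the empty vector clones, the 2 constructs left the range of the 3 controls in different ways. Of the 241 called probes, 97 lay outside that range only in clone 2 (every array on 1 side of it), 45 only in clones 9 and 12, 67 on opposite sides in the 2 constructs, 16 on the same side and 16 in neither. Over all tested probes 14.43% lay outside only in clone 2, 19.58% only in clones 9 and 12 and 1.96% on opposite sides. Of the called probes these shares were 40.25%, 18.67% and 27.8%, and the 18.67% is near that of all probes. The called probes were picked for a difference between clone 2 and clones 9 and 12, which itself favours opposite sides. Clone 8 took no part in these calls, but the clone 2 values it is set against did. That choice alone favours clone 8 lying on the side of clones 9 and 12. Clone 8 was below clone 2 for 78 of the 100 higher probes, beside 42.0% of all probes. It was above clone 2 for 79 of the 141 lower probes, beside 58.0%. With clone 8 averaged in, 1 of the 100 and 7 of the 141 changed sign. Wild type cells lay nearer to clone 2 than to clones 9 and 12 for 70 of the 100 higher probes and 66 of the 141 lower ones, beside 58.9% of all probes. The mean of the empty vector clones was nearer to clone 2 for 19 of the 100 higher and 9 of the 141 lower probes, beside 43.8% of all. Both constructs were set against the same empty vector clones, and the wild type cells differed from all clones in having no vector and no puromycin.

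Of the 141 lower probes, 30 lay in 2 stretches of neighbouring genes, counted over all tested probes between the ends of each stretch. A running median over 15 genes, taken over the 7075 probes with an empty vector mean of at least 7.5, passed 0.4 in size in 2 places when clone 2 was set against clones 9 and 12. The window and the level were chosen after the values were seen, and the genes of these stretches are named for their place. The first stretch ran on chromosome 3 from APPL1 to SHQ1 and held 25 such probes, 24 of them lower, with a median of -0.75. The second ran on chromosome 13 from EFNB2 to CHAMP1, the last tested gene of the chromosome. This stretch held 23 such probes, of which 22 were lower, with a median of -0.61. With dimmer tested probes included, the first held 35, of which 31 were lower, with a median of -0.52. The second then held 32, of which 28 were lower, with a median of -0.48. All 3 arrays of clone 2 lay below both clones 9 and 12 for 22 of the 25 and 18 of the 23. The share of all probes for which this holds was not counted. The stretches were picked for low values of clone 2 against clones 9 and 12, so these counts and medians follow in part from that choice.

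Each array of clone 2 was low in both stretches, and these are the arrays from which the stretches were picked. Against the empty vector clones the median of the chromosome 3 stretch was -0.63, -0.50 and -0.56 on arrays 1, 2 and 3, and that of the chromosome 13 stretch was -0.56, -0.38 and -0.39. In clone 8 they were -0.39 and 0.03, so the chromosome 3 stretch was low there too, and clone 8 was below clone 2 for 11 of its 25 probes and 4 of the 23 on chromosome 13. With clone 8 in the comparison the medians were -0.41 and -0.53. The chromosome 3 stretch had medians of 0.09 in clone 9, 0.07 in clone 12 and 0.14 in wild type cells, and the chromosome 13 stretch 0.25, 0.08 and 0.05. No stretch passed 0.4 in clone 9 or clone 12 against the empty vector clones, and 1 did in wild type cells. In clone 8, whose array stood apart, 253 did. Empty vector clone 1 against the other 2 controls gave 2 stretches past 0.4, both higher, and neither of the other controls gave any. Against clones 9 and 12, array 1 alone gave 2 and arrays 2 and 3 alone gave 8, of which 6 were higher. Clone 2 against the empty vector clones gave 3, all lower. Outside these stretches chromosome 3 had 4 lower and 10 higher calls in 610 probes, and chromosome 13 had 5 lower and 2 higher in 158. Copy number was not measured and its part in these runs was not tested.

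The chromosome 3 stretch held FHIT, a diadenosine triphosphate hydrolase at a common fragile site. FHIT was at 7.97, 8.27 and 8.35 in the empty vector clones, 8.49, 8.45 and 8.06 in clones 8, 9 and 12, and 6.96, 6.72 and 6.81 in clone 2 (-1.43, adjusted p = 0.00769). CADPS, a priming factor of dense-core vesicle release, was at 7.14 to 7.24 in the empty vector clones, 7.44, 7.17 and 7.53 in clones 8, 9 and 12, and 6.13, 6.06 and 6.12 in clone 2 (-1.25, adjusted p = 0.00526). The forkhead factor FOXP1 (-1.03), the mitochondrial SUCLG2, a subunit of succinyl-CoA ligase (-0.93), the NEDD8-activating enzyme subunit UBA3 (-0.74) and the Polycomb partner RYBP (-0.78) were called as well. Clone 2 did not overlap clones 9 and 12 in any of them. Clone 8 was below the mean of clone 2 for SUCLG2 (6.53), UBA3 (9.35) and RYBP (7.74), and with it their differences were -0.28, -0.40 and -0.37, while those of FHIT, CADPS and FOXP1 were -1.50, -1.28 and -0.90.

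On chromosome 13 the called genes were ARGLU1 (-1.07), DCUN1D2 (-1.06), ABHD13 (-0.89), the mitochondrial cysteinyl-tRNA synthetase CARS2 (-0.88), the gamma-tubulin complex member TUBGCP3 (-0.80), ANKRD10 (-0.77), the ubiquitin ligase scaffold CUL4A (-0.76), the ligand ephrin-B2 EFNB2 (-0.62), ARHGEF7 (-0.59), the lysosomal membrane protein LAMP1 (-0.57), PCID2 and CHAMP1. PCID2, a factor of mRNA export, was called on both of its probes, by -1.29 and -0.64. CHAMP1, which helps attach chromosomes to the spindle, was at 9.44 and 9.32 in clones 9 and 12 and at 8.71, 7.75 and 8.16 in clone 2 (-1.17, adjusted p = 0.00552). At a lower level of 0.3 the longest further runs were at the end of chromosome 3, where IGF2BP2 to OPA1 (10 probes, median 0.39) and TFRC to LMLN (15 probes, median 0.35) were higher in clone 2, and MB21D2 lies in the first of these.

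**Figure D4:**
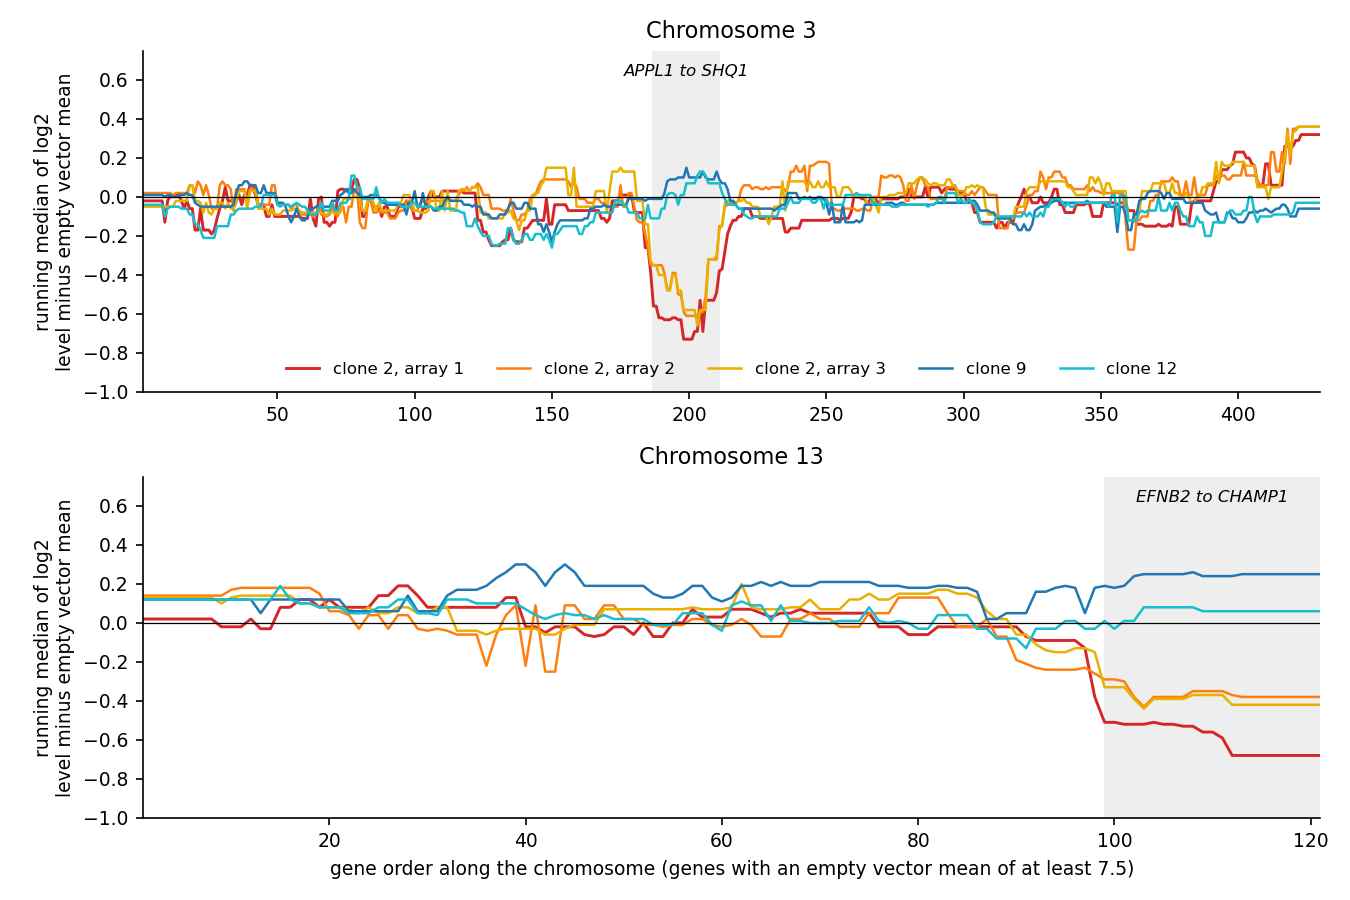
Running median over 15 neighbouring genes of the log2 level minus the empty vector mean (y axis) in gene order (x axis) on chromosomes 3 and 13, for each array of clone 2 and for clones 9 and 12. Grey marks the stretches APPL1 to SHQ1 and EFNB2 to CHAMP1, where all 3 arrays of clone 2 run below 0 while clones 9 and 12 stay near or above it.

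The gene lists described next held 697 tested entries in 28 lists. Each count is read beside 2.13% of all probes called and a median difference of 0.02 over all probes, without clone 8. Of all 11324 probes, 6291 were higher in clone 2 and 5033 lower. In none of the lists did a member pass with clone 8, and 14 of the 28 list medians then had the opposite sign, beside a median of -0.05 over all probes. Cholesterol and fatty acid synthesis had 4 of 25 members called, all lower, and 19 of 25 were lower in clone 2 with a median of -0.15 (-0.21 with clone 8). The members were INSIG1, which retains the sterol sensor in the endoplasmic reticulum (-1.11, adjusted p = 0.00335), and the enzymes IDI1 (-0.81), MSMO1 (-0.75) and LSS (-0.65). INSIG1 was at 10.11, 10.25 and 10.21 in the empty vector clones, 9.41, 9.60 and 9.53 in clones 8, 9 and 12, and 8.34, 8.74 and 8.28 in clone 2. Both constructs were below the empty vector clones and clone 2 further so, and wild type cells at 8.64 were among the arrays of clone 2. The list median against the empty vector clones was -0.44 in clone 2 and -0.07 in clones 9 and 12.

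The lists of matrix, actin, adhesion and YAP genes had called members in both directions, 3 higher and 0 lower, 2 and 0, 0 and 2, and 1 and 2, respectively. Extracellular matrix and matrix proteases had 3 of 28 members called, all higher, namely CHI3L1, the plasminogen activator PLAT (0.72) and the metalloproteinase inhibitor TIMP3 (0.70), with a list median of 0.09 that was -0.12 with clone 8. In the actin cytoskeleton list 2 of 40 were called higher, FSCN1 and the calponin CNN2 (0.68), 28 of 40 were higher and the median was 0.17 (0.18 with clone 8). Integrins and adhesion receptors had 2 of 36 called, both lower, ITGB1, the beta chain shared by many integrins (-0.71), and EFNB2. YAP targets and caveolae had 3 of 25 called, TGFB2 and the caveolar coat protein CAV1 (-1.01) lower and the clotting initiator F3 (0.76) higher. CAV1 was at 8.45, 7.94 and 7.91 in clone 2, at the level of the empty vector clones (8.32, 8.03 and 7.97), and at 8.84 and 9.37 in clones 9 and 12, while clone 8 was at 6.86, which brought the difference to -0.26.

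Signalling and differentiation lists had few called members. In the BMP and TGF-beta list 3 of 23 were called, all lower, TGFB2, the ligand BMP4 (-0.70) and the receptor BMPR2 (-0.65). With clone 8 BMP4 turned to 0.14. BMP4 and BMPR2 on array 1 of clone 2, at 12.34 and 8.85, were beside clones 9 and 12, and only arrays 2 and 3 were lower. IGF1R, the insulin-like growth factor receptor, was 1 of 32 called in the EGFR and ERK list (-0.997, adjusted p = 0.00613), at 8.45 and 8.54 in clones 9 and 12 and at 7.33 to 7.66 in clone 2. A second IGF1R probe was called as well (-0.83, adjusted p = 0.0119). On the first IGF1R probe wild type cells were at 7.58, among the arrays of clone 2. Chloride and bicarbonate secretion had 2 of 25 called, CFTR and the sodium-hydrogen exchanger SLC9A2 (-0.90), and a median of 0.03 (-0.10 with clone 8). Goblet and secretory markers had 2 of 22 called, SPINK4 and TFF1, and their median went from 0.01 to -0.17 with clone 8. The brush border markers had villin, VIL1 (0.68), higher and the nuclear receptor HNF4G (-0.87) lower of 22, and of the 26 Wnt and crypt genes the stem cell surface marker PROM1 (-1.01) was lower, with a list median of 0.01 (-0.19 with clone 8). The epithelial factor EHF (-1.12) was the only member of 39 called among junctions and keratins.

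Proliferation lists leaned higher in clone 2 with few calls, beside 6291 of 11324 probes higher in all. Of 38 genes of G2/M and mitosis, 30 were higher with a median of 0.20 (0.40 with clone 8), and the securin PTTG1 (0.73) and the kinase AURKB (0.59) were called. Of 43 genes of DNA replication and S phase, 31 were higher with a median of 0.14 (0.35 with clone 8), and the helicase subunit MCM2 (0.59) was called. For replication the median was 0.01 with array 1 alone and 0.21 with arrays 2 and 3 alone. MCM2 itself was at 9.06 on array 1, near clones 9 and 12 at 8.97 and 8.92, and at 9.82 and 9.72 on arrays 2 and 3. Wild type cells had list means of 9.89 for G2/M and 9.41 for replication. The arrays of clone 2 had 9.82 to 9.96 and 9.24 to 9.51. In the remaining lists IL18 (0.87), B2M, the light chain of class I antigen presentation (0.59), and the endoplasmic reticulum stress protein HERPUD1 (-0.86) were called, along with JUN and SATB1.

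No member was called among 20 genes of the nuclear lamina and envelope, 23 p53 targets, 25 hypoxia and glycolysis genes, 26 antioxidant and detoxifying enzymes, 2 germline genes, or 8 mesenchymal, 15 leukocyte, 7 endothelial and 11 neuroendocrine markers. In the lamina list LMNA, which encodes lamins A and C, differed by 0.43 (adjusted p = 0.180), LMNB2, the other B-type lamin, by 0.10 (adjusted p = 0.887) and LBR, the lamin B receptor, by -0.04 (adjusted p = 0.979).

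**Figure D5:**
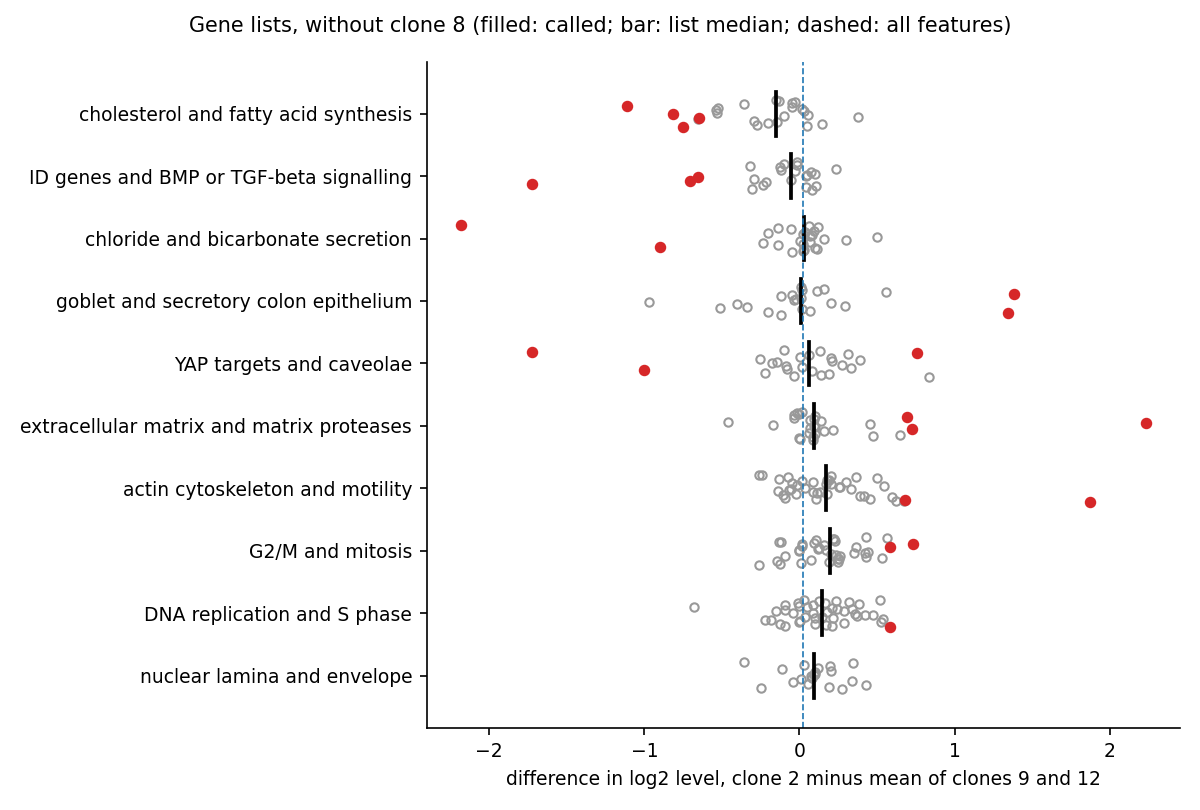
Difference of clone 2 minus the mean of clones 9 and 12 in log2 units (x axis) for the tested members of 10 gene lists; filled points were called, black bars are list medians and the dashed line is the median of all probes, 0.02. Cholesterol synthesis has 4 called members on the left and a median of -0.15, and no lamina gene is filled.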

How the data were processed

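The 10 samples were measured on gene-level exon arrays, and the deposited file gives 1 log2 value for each of 22011 probes, made by the authors. The base of the logarithm follows from the span of the values only. How the authors corrected background, normalized arrays and combined probes is not given in the sources used here. The values were used as deposited. Probes were named through the platform annotation: 14432 carry 1 symbol, 2408 several and 5171 none, and 14404 were matched by gene identifier to RefSeq (GRCh38.p14), which gave names and gene order. Probes with several symbols were left out, except that of LMNB1, as were those with a mean under the 25th percentile, 5.96, which left 11324 probes of 11199 genes.

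The 3 arrays of clone 2 were averaged. Groups were fitted with limma 3.58.1 under R 4.3.3 (two-sided moderated tests from lmFit and eBayes, Benjamini-Hochberg over all probes tested, threshold 0.05), over 8 samples with 4 residual degrees of freedom, or 7 samples with 3 without clone 8, whose prior degrees of freedom were 3.25 and 7.57. The p-values rest on how far clones of the other groups spread. The procedure was checked on simulated data. Precision is limited by how few arrays there are.

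Named were LMNB1 and the markers, the 15 largest differences each way called without clone 8 with no overlap between the arrays of clone 2 and clones 9 and 12, the 5 smallest p each way with clone 8, and up to 4 members of each list by p; other names were chosen after their values were seen. Lists hold 993 entries, of which 833 have a probe and 697 were tested, and no set test was made. The members and lists were chosen with earlier results of these data known. Alternatives were other normalizations, filters, priors, weights and treatments of the arrays, fewer samples, and a regional correction.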

Additional observations from a re-analysis of the deposited data

Results flagged for a closer look

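For 19 of the 241 called probes, every array of clone 2 lay on one side of the range of the 3 empty vector clones and each of clones 8, 9 and 12 on the other. The values are clone 2 minus clones 9 and 12 in log2 units, and each passed the test without clone 8. With clone 8 none of them did. The share over all probes was not counted for this rule. Against clones 9 and 12 alone, opposite sides held for 27.8% of the called probes and 1.96% of all probes. Calling probes for a difference between clone 2 and clones 9 and 12 itself favours opposite sides. Lying outside the range of 3 clones is not a test, and the distance from their mean was small on 1 side for some genes. Clones 9 and 12 differed from it by -0.10 for MB21D2 and 0.16 for IGF1R. Clone 2 differed from it by -0.21 for PYGL and 0.29 for EIF3J. For SATB1 the distances were -1.46 in clone 2 and 1.11 in clones 9 and 12. Clone 2 was the higher side for CHI3L1 (2.23), FSCN1 (1.88), PTPRR (1.61), MB21D2 (1.07), CHRNA1 (0.97), TAX1BP3 (0.97), THEM4 (0.90), PRR13 (0.84), YIPF1 (0.82), EHHADH (0.78), EIF3J (0.71), CNIH4 (0.69), GYG1 (0.68) and SVBP (0.63). It was the lower side for SATB1 (-2.58), IGF1R (-1.0), PYGL (-0.73), CTTNBP2 (-0.64) and EFNB2 (-0.62). Wild type cells were not part of the rule. They lay among the arrays of clone 2 for IGF1R (7.58), PYGL (6.32), GYG1 (9.35), SVBP (9.17) and TAX1BP3 (10.24). For EIF3J they lay above those arrays, at 10.47. For the other genes listed they lay outside those arrays, toward clones 9 and 12. PYGL and GYG1 are enzymes of glycogen metabolism, EHHADH is an enzyme of peroxisomal fatty acid oxidation and THEM4 a mitochondrial thioesterase.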

How the results depend on the processing

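Without clone 8, 241 probes were called. The count was 155 after quantile normalization, 128 with arrays centred on their medians, 125 with no filter, 506 with clone as a random block, 419 with every array as a replicate, 58 with a running median of 51 neighbours removed, 127 with array 1 alone for clone 2 and 6 with the knockdown clones only, which leaves 1 residual degree of freedom. Leaving out 1 array or clone gave 72 to 954. With all clones 0 probes were called, 372 with array weights, 4 with clone as a random block and 15 with every array as a replicate, and 0 to 241 with 1 array or clone left out. The LMNB1 difference changed sign, ranging from -0.0735 to 0.0951 with all clones and from -0.0304 to 0.221 without clone 8 as single arrays or clones were left out. DYNLT1 with all clones was -0.15 with array 1 alone. These checks covered the markers and the genes named for the size or p of their difference, not those named only from lists or stretches. Of the other genes covered, none reversed under these alternatives. LMBR1, named after its values were seen, was not covered, and its array 1 lay 0.21 above clones 9 and 12. Without clone 8, calls were lost in 119 of 611 cases, and with all clones a call was gained in 78. The alternatives with all clones include 1 that left clone 8 out, which gave the 241 and part of the 78. Causes were not tested. The array 1 and 15-gene settings were chosen after seeing the data. No paired analysis was possible because the V2LHS_62675 arrays are numbered 1 to 3 and the V2LHS_62673 clones 8, 9 and 12, which share no number. A lone sample was assumed to vary like the other groups. Signal over background was not analysed here.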
